A study of Mus musculus with 6 samples.

Results

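Nuclear-encoded subunits of the mitochondrial respiratory chain were examined in bone marrow-derived macrophages (BMMs) with and without cartilage fragments. Members were the gene symbols that start with Ndufa, Ndufb, Ndufc, Ndufs, Ndufv, Uqcr, Cox4 to Cox8 or Atp5 and had a mean of at least 1 FPKM (a fragment count adjusted for transcript length and sequencing depth) over the 6 libraries. Of 24394 gene symbols in the files, 88 had such a symbol and 81 of these reached that level, among 10393 genes that did so in all. The members comprised 36 subunits of complex I, 8 of complex III, 13 of complex IV and 15 of the ATP synthase (complex V), which gave 72 in all. Ndufa4, now known as a complex IV subunit, and Cox7a2l, which helps to join complexes III and IV, were counted with complex IV. The other 9 carry the same prefixes but are no subunits, namely the 7 complex I assembly factors Ndufaf1 to Ndufaf7 and the genes Atp5s and Atp5sl. The rule used the symbols and the mean level over both groups, not the difference between them. Atp5s reached that level only through the stimulated libraries (means of 0.703 FPKM in controls and 2.49 FPKM in stimulated libraries).

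BMMs were grown from the marrow of wild type C57BL/6 mice at postnatal day 28 in macrophage colony-stimulating factor (M-CSF, 50 ng/ml) over 7 days. Control BMMs (3 libraries) received nothing more, and stimulated BMMs (3 libraries) received cartilage fragments of the same mice at 5 per macrophage for 24 h. Neither the labels nor the study's methods say whether the 3 libraries of a group came from separate mice or wells, so the p-values measure the spread between these libraries, which may be technical. BMMs are differentiated in culture and are not the macrophages that reside in the joint. The coverage listed beside each FPKM gave an estimated 699192 to 776322 fragments per library, far below the number of mapped reads that the study's methods state. The cause of this gap was not tested. Low values came in whole steps of that estimate, with 83.6% to 91.3% of them within 0.1 of a whole fragment. A member collected between 6.95 and 3275 estimated fragments over the 6 libraries, with a median of 212. All 7 macrophage markers, among them Csf1r, Cd68 and Lyz2, were above 0 in every library, whereas 4 of 8 cartilage markers were listed at 0 in all libraries and the list summed to at most 3.28 FPKM. Lymphocyte and erythroid markers were listed at 0 throughout, and the muscle list summed to at most 1.11 FPKM in controls and was at 0 in all stimulated libraries. In the neutrophil list S100a8 and S100a9 made up a sum of 722 to 811 FPKM in controls and 663 to 957 FPKM in stimulated BMMs, while Mpo and Elane were at or near 0. In 2 lists some markers moved with the groups and others did not. Adgre1, the macrophage antigen F4/80, rose by 0.59 on the log2 scale (adjusted p = 0.00965 by limma). It was the only 1 of the 7 macrophage markers that passed on FPKM, and 6 of the 7 had a higher mean in stimulated BMMs. Itgam rose by 0.26, with every stimulated library above every control (adjusted p = 0.182 by limma). Csf1r (0.01) and Lyz2 (-0.01) differed little. On estimated fragments scaled to the library, Adgre1 and Itgam passed (adjusted p = 2.41e-09 and 0.000217 by limma). The fibroblast list (Col1a1, Col1a2, Dcn and Pdgfra, 4 of 4 above 0) summed to 153 to 165 FPKM in controls and 102 to 117 FPKM in stimulated BMMs. This fall was that of the collagen genes Col1a1 (means 79.0 and 47.8 FPKM) and Col1a2 (78.1 and 58.6 FPKM). Neither passed on FPKM (adjusted p = 0.0849 and 0.290 by limma), and both passed on scaled fragments (adjusted p = 7.18e-06 and 0.00477 by limma). Dcn (2.79 and 3.52 FPKM) and Pdgfra (0.281 and 0.365 FPKM) had higher means in stimulated BMMs. Their part in the results was not tested. In bulk RNA, fewer cells of a type and less RNA per cell cannot be told apart.

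Complex I takes electrons from NADH, complex III passes them to cytochrome c, and complex IV hands them to oxygen. All 3 pump protons across the inner mitochondrial membrane, and the ATP synthase uses the return of these protons to make ATP. Each is a mosaic of subunits that carry out catalysis, called core subunits in complex I, and accessory subunits that build and hold the complex. Macrophages are known to alter their use of this chain when they are activated by inflammatory signals. The 13 subunits encoded by mitochondrial DNA were not listed under the symbols searched, so they could not be analysed here.

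The subunit genes were among the most abundant transcripts of BMMs. The median level of the 81 members was 84.9 FPKM, against 11.1 FPKM for all tested genes, and 50 of the 72 subunits (69.4%) lay in the top decile of tested genes. The transcripts of the subunits were short, with a median length of 638 bases against 2710 bases for all tested genes. The complexes differed in level, with medians of 69.0 FPKM for complex I, 117 FPKM for complex III, 221 FPKM for complex IV and 224 FPKM for the ATP synthase. Above 200 FPKM were 1 of 36 subunits of complex I, 3 of 8 of complex III, 7 of 13 of complex IV and 9 of 15 of the ATP synthase. The highest mean was that of Cox6b1 (527 FPKM), a complex IV subunit that faces the intermembrane space, followed by Atp5b (442 FPKM), the catalytic beta subunit of the ATP synthase, Cox4i1 (438 FPKM) and Cox8a (420.3 FPKM). Over the 6 libraries these 4 genes ranged from 484 to 596, 412 to 493, 383 to 488 and 373 to 461 FPKM, so neighbours in this order overlapped while Cox6b1 lay above Cox8a in all libraries. Ndufa3 led complex I with 367 FPKM and Uqcrh, the hinge subunit, led complex III with 318 FPKM. In complex I the core subunits had a median of 53.4 FPKM and the accessory subunits one of 69.9 FPKM, and in complex III the accessory subunits (221 FPKM) lay above the core proteins and the Rieske protein (72.6 FPKM). The plot of levels shows the members by library.

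**Figure D1:**
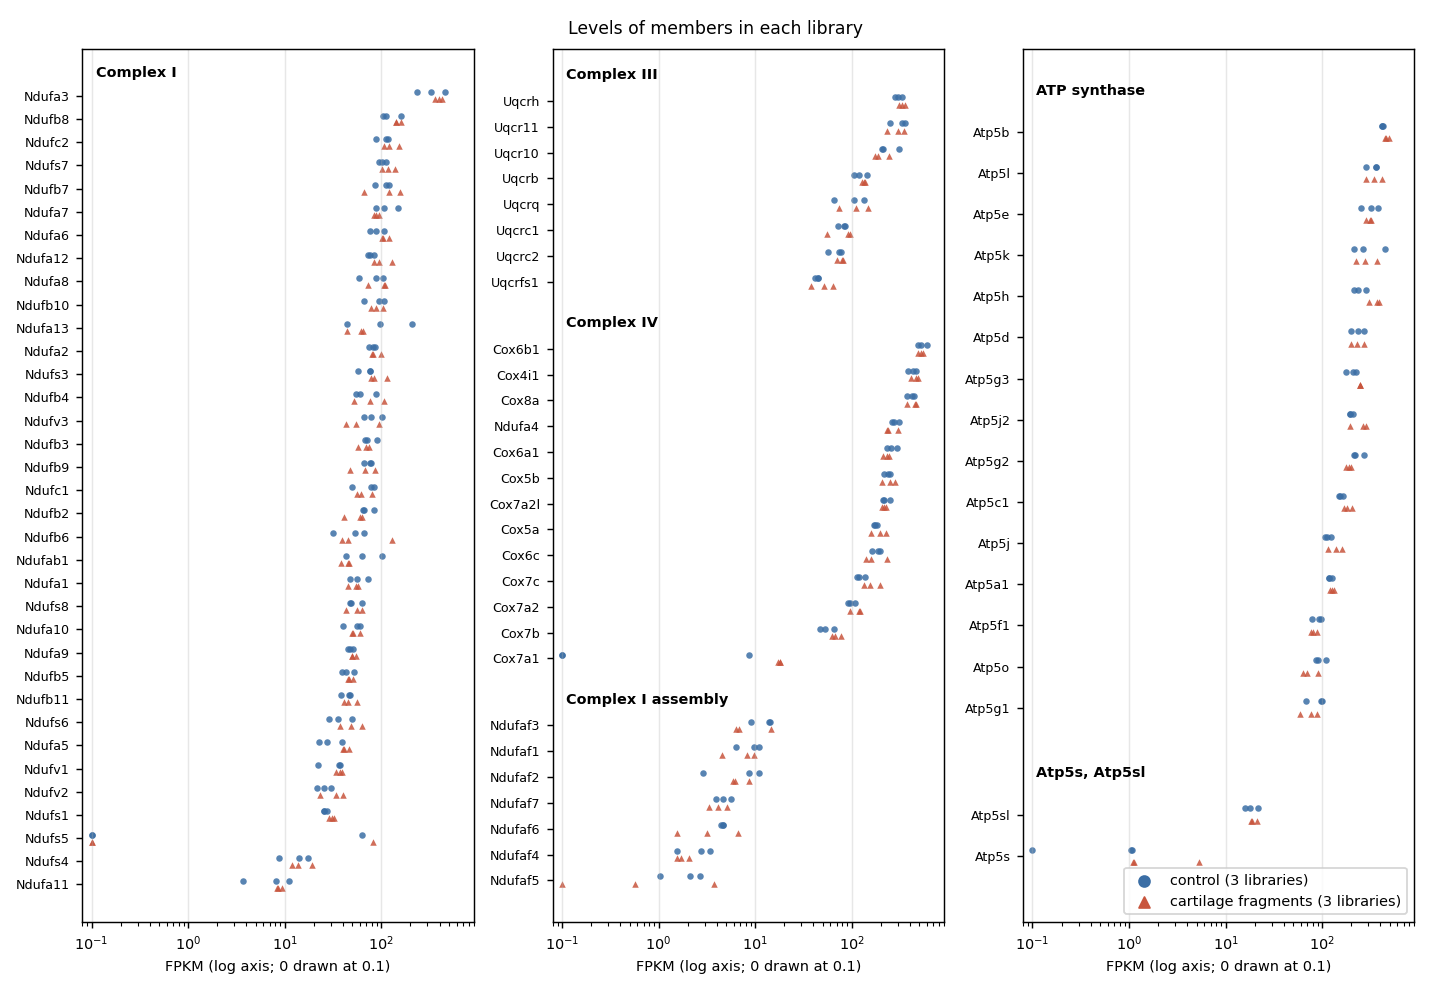
FPKM of the members (log axis, values of 0 drawn at 0.1) in 3 control libraries (blue circles) and 3 libraries with cartilage fragments (red triangles), ordered by mean within each complex. The groups lie side by side for most genes, the complex I assembly factors (median 4.46 FPKM) lie far below the subunits, and Ndufs5 and Cox7a1 are listed at 0 in some libraries.

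Tissue-restricted isoforms were near or at 0. Cox4i2, Cox7b2, Cox8b, Cox8c and Ndufa4l2 were listed at 0 in all 6 libraries, Cox6a2 in all but stimulated replicate 2 (3.11 FPKM) and Cox6b2 in all but control replicate 3 (5.22 FPKM). These 7 were the symbols below the level filter. Their general counterparts Cox4i1, Cox6a1, Cox6b1, Cox7b and Cox8a accounted for at least 98.7% of the FPKM of each isoform pair or trio in every library. AA467197, a relative of Ndufa4 known to be induced in inflammation, had 0, 3.11 and 3.12 FPKM in controls and 0, 0 and 3.34 FPKM in stimulated BMMs, beside 234 to 307 FPKM of Ndufa4.

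To ask whether cartilage fragments changed the chain, stimulated and control BMMs were compared on log2(FPKM + 0.1) with limma across all tested genes, two-sided and with Benjamini-Hochberg adjustment, and a gene passed at an adjusted p under 0.05. No member passed (0 of 81), where 0.366% of all tested genes did, and the smallest adjusted p among members was 0.186. At an unadjusted p under 0.05 there were 9 members (11.1%) by limma with trend and robust moderation, where 9.19% of all tested genes were, and 2 (2.47%) without these options, where 8.12% of all tested genes were. The same test on estimated fragments, scaled to the fragments of the library, a scale that is less sensitive to the length that Cufflinks assigns, called 1 member, Atp5h, where 2.39% of all tested genes passed. On that scale 5 members (6.17%) and 11.5% of all tested genes had an unadjusted p under 0.05. Every stimulated library lay above every control for 9 of 81 members (9.04% of all tested genes did so) and below every control for 2 (6.89% of all tested genes). Together, 13.6% of the members and 15.9% of all tested genes had groups that did not overlap. The 9 members above every control include Atp5s, which reached the level filter only through the stimulated libraries. With a filter of 5 FPKM they numbered 8.

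The differences were small, and more means were higher than lower. The median of the 72 subunits was 0.11 on the log2 scale, against 0.00 for all tested genes, and 48 of the 72 (66.7%) had a higher mean in stimulated BMMs, against 50.5% of all tested genes. The median half-width of a 95% interval was 0.38 for the subunits, and 63 of the 72 intervals included 0. The levels of 70 subunits, without Cox7a1 and Ndufs5, correlated between libraries with Pearson's r of 0.92 to 0.96 within groups (6 pairs) and 0.90 to 0.97 between groups (9 pairs), a description across genes that share each library and its depth.

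Compared with each other, the complexes had median log2 differences of 0.15 (complex I), 0.13 (complex III), 0.06 (complex IV) and 0.05 (ATP synthase). Leaving out each library in turn gave 0.11 to 0.16 for complex I, 0.01 to 0.19 for complex III, 0.00 to 0.16 for complex IV and -0.01 to 0.11 for the ATP synthase, so the ranges overlapped and the order of the complexes was not resolved. The median of the ATP synthase was below 0 without control replicate 1 (-0.01) and with equal library totals (-0.000241), and that of complex III was 0.01 without control replicate 2. Per 1000000 fragments of the library, complex I summed to 1299, 1226 and 1267 in controls and 1437, 1344 and 1388 in stimulated BMMs. The ATP synthase summed to 2047, 2162 and 2090.4 in controls and 2237, 2250.2 and 2222 in stimulated BMMs. In both, all stimulated libraries lay above all controls. Complex III (533 to 583 against 526 to 657) and complex IV (1189 to 1229 against 1125 to 1293) overlapped between groups. As summed FPKM all 4 complexes overlapped between groups, with 2539 to 2717 against 2642 to 2884 for complex I and 2952 to 3448 against 3301 to 3388 for the ATP synthase, so the separation of these 2 complexes depended on the scale.

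**Figure D2:**
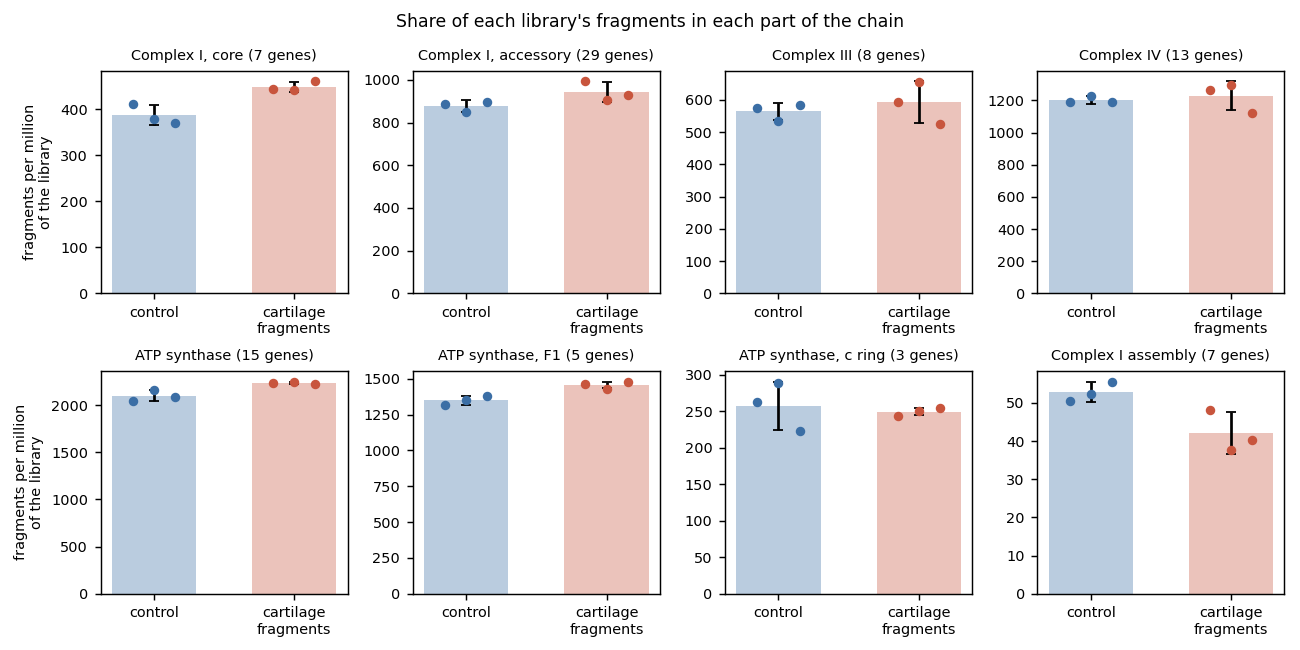
Summed fragments per 1000000 fragments of the library for 8 parts of the chain in control (blue) and stimulated (red) libraries, where bars are means of 3 libraries, error bars 1 SD and points single libraries. The groups overlap for complex III, complex IV and the c ring and are apart in the other panels. They are narrowly apart for the accessory subunits of complex I (848 to 898 against 903 to 993) and the assembly factors (50.6 to 55.6 against 37.6 to 48.1).

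In the ATP synthase the groups did not overlap for 5 of 15 subunits (33.3%), beside 4 of 36 in complex I, 1 of 13 in complex IV, 0 of 8 in complex III and 15.9% of all tested genes. This difference between complexes was not tested. Atp5h, subunit d of the peripheral stalk that holds the catalytic head in place, had 236, 283 and 213 FPKM in controls and 369, 388 and 304 FPKM in stimulated BMMs. Each stimulated library lay above each control. The log2 difference was 0.54 (SE 0.13, 95% interval 0.24 to 0.83), a 1.45-fold change on the log2(FPKM + 0.1) scale, with an adjusted p of 0.186 by limma. On the scale of fragments (67.1, 77.3 and 58.0 against 100.4, 101 and 77.0 per library) the difference was 0.52 on the log2 scale with an adjusted p of 0.0469 by limma. Over all settings tried its adjusted p by limma ran from 0.0469 to 0.563. Atp5h was also the only member among the genes that the study itself listed as changed in these libraries, so its direction here is not independent evidence. The other stalk genes were Atp5j (log2 difference 0.26, adjusted p = 0.622 by limma), Atp5f1 (-0.11) and Atp5o (-0.37, adjusted p = 0.538 by limma).

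In the catalytic F1 head, Atp5b had 412, 419.8 and 424 FPKM in controls and 455, 448 and 493 FPKM in stimulated BMMs. With 3275 fragments it was the most deeply covered member and held 33.9% of the fragments of the complex. Its groups did not overlap, and the log2 difference of 0.15 (SE 0.06) had an adjusted p of 0.509 by limma. Atp5c1, the central shaft subunit gamma, had 150.3, 162 and 154 FPKM in controls and 168, 202 and 183 FPKM in stimulated BMMs, again without overlap (log2 difference 0.24, SE 0.09, adjusted p = 0.479 by limma). The alpha subunit Atp5a1 had means of 121 ± 4.79 and 126 ± 5.75 FPKM (SD, n = 3), and Atp5d and Atp5e, the delta and epsilon subunits, had log2 differences of -0.02 each. Summed over the 5 head genes, fragments per 1000000 came to 1319, 1352 and 1381 in controls and 1464, 1431 and 1477 in stimulated BMMs.

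The c ring is the rotor in the membrane, and its single subunit is made from the genes Atp5g1, Atp5g2 and Atp5g3, which are known to encode the same mature protein behind different import sequences. Because their reads could be confused, the coding sequences were compared first. The ends of the coding sequences, which align without gaps, differed among the 3 genes at 60 positions. Over this stretch identity was 84.8% between Atp5g1 and Atp5g2, 79.2% between Atp5g1 and Atp5g3 and 78.4% between Atp5g2 and Atp5g3, and the longest identical stretch of any pair over the whole coding sequence was 21 bases, against reads of 100 bases. The last 120 bases are shown 5′ to 3′ from the GENCODE vM21 transcripts (genes on chromosomes 11, 15 and 2), with capitals at the 31 positions where the 3 genes are not all alike.
Atp5g1: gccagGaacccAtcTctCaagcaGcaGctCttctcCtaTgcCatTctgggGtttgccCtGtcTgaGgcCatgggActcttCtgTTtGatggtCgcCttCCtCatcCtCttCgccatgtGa
Atp5g2: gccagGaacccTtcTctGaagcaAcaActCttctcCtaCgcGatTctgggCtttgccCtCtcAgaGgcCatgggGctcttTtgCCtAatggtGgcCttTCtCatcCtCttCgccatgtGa
Atp5g3: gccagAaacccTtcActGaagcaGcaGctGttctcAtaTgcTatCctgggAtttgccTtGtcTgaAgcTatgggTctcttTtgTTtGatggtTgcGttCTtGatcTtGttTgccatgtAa

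Atp5g2 had 220.3, 272 and 212 FPKM in controls and 199.6, 189 and 178 FPKM in stimulated BMMs. Atp5g3 had 209, 224 and 175 FPKM in controls and 244, 244 and 248 FPKM in stimulated BMMs. Both were without overlap and in opposite directions, with log2 differences of -0.31 (SE 0.11) and 0.28 (SE 0.10) and an adjusted p of 0.423 each by limma. Atp5g1, the least abundant of the 3, had 68.6 to 100.3 FPKM in controls and 59.3 to 88.1 FPKM in stimulated BMMs, with overlap. The sum of the 3 genes was 526 ± 69.2 FPKM in controls and 508 ± 5.01 FPKM in stimulated BMMs (SD, n = 3). Within this sum, Atp5g3 held 39.5%, 37.7% and 38.5% in controls and 48.5%, 47.9% and 48.2% in stimulated BMMs, and Atp5g2 held 41.6%, 45.8% and 46.4% in controls and 39.7%, 37.1% and 34.6% in stimulated BMMs. Atp5g2 was the larger share in all controls and Atp5g3 in all stimulated libraries. The shares were looked at after the levels had been seen and were not tested.

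**Figure D3:**
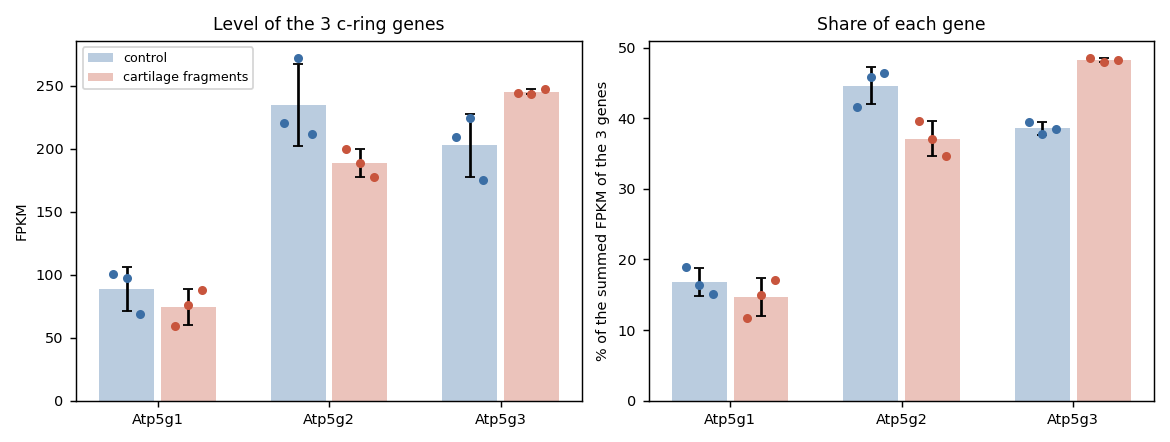
FPKM of the 3 c-ring genes (left) and the percentage of their summed FPKM (right) in control (blue) and stimulated (red) libraries, where bars are means of 3 libraries, error bars 1 SD and points single libraries. Atp5g3 lies between 37.7% and 39.5% in controls and between 47.9% and 48.5% in stimulated BMMs, while Atp5g2 is lower in all stimulated libraries.

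The promoters of the members were searched for motifs of factors known to act on subunit genes, on both strands, from 250 bases before to 50 bases after the start site (RefSeq, GRCm38.p6). Of the 81 members 70 had a promoter in the table. The NRF1 motif GCGCANGCG was in 28.6% of the member genes, against 16.6% of 8384 tested genes and 7.03% of all 27025 genes in the table. The YY1 motif AAGATGGCG was in 11.4% of member genes, against 4.07% of tested and 1.64% of all genes. The ETS motif CCGGAAG, which GABP binds, was in 21.4% of member genes, against 22.4% of tested and 9.93% of all genes, and the NFY motif CCAAT in 42.9%, against 42.8% and 41.1%. The NRF1 motif was in 7 of 14 ATP synthase genes, 8 of 32 of complex I, 2 of 5 of complex III and 1 of 11 of complex IV. These shares describe letters in the windows and were not tested. Promoter stretches are shown for Atp5h, Atp5g2 and Atp5g3, 3 of the ATP synthase genes without overlap between groups. Each is the exon-free 150 bases nearest to the start site on the minus strand, 5′ to 3′. The stretches end 43 (Atp5h), 80 (Atp5g2) and 0 bases (Atp5g3) before that site, with NRF1 and NFY motifs (CCAAT or its reverse ATTGG) in capitals. They lie at chr11:115419963-115420112 (Atp5h), chr15:102671128-102671277 (Atp5g2) and chr2:73911327-73911476 (Atp5g3) of GRCm38. Atp5h holds the NRF1 motif once and the NFY motif at 2 places, Atp5g3 holds the NFY motif once, and none of the 4 motifs is in the stretch of Atp5g2. These counts are for the printed stretches only. In the full windows searched, all 3 genes hold the NRF1 motif, and Atp5h also holds the ETS motif. Of the other ATP synthase genes without overlap, Atp5c1 holds the NRF1 motif and Atp5b does not.
Atp5h: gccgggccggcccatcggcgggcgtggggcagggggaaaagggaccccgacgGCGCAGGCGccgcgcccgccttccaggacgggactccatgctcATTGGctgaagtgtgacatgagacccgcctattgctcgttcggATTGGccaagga
Atp5g2: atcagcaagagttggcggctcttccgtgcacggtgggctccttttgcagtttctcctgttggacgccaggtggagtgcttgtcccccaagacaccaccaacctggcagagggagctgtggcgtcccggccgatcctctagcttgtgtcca
Atp5g3: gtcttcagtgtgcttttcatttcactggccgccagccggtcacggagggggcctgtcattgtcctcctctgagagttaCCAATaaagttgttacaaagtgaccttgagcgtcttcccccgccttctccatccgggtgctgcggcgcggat

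Atp5l, Atp5k and Atp5j2 encode the small membrane subunits g, e and f. Atp5l and Atp5k overlapped between groups (log2 differences 0.06 and -0.03). Atp5j2 had 209.9, 195 and 194 FPKM in controls and 287, 194 and 263 FPKM in stimulated BMMs, so stimulated replicate 2 lay at the control level.

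In complex I all 7 nuclear-encoded core subunits had a higher mean in stimulated BMMs, with a median log2 difference of 0.23 (range without 1 library, 0.19 to 0.28), and 0 of the 7 passed the test. Their summed FPKM over named and assembled transcripts was 406, 364 and 376 in controls and 444, 448 and 460.2 in stimulated BMMs, without overlap. Ndufs1, the largest subunit of the electron-accepting arm, had 27.7, 25.7 and 25.4 FPKM in controls and 31.1, 28.4 and 32.6 FPKM in stimulated BMMs (log2 difference 0.22, SE 0.14, adjusted p = 0.686 by limma). Ndufs3 had 76.0, 56.7 and 75.7 FPKM in controls and 84.5, 78.5 and 114 FPKM in stimulated BMMs (0.40, SE 0.18, adjusted p = 0.551 by limma). Both were without overlap. In stimulated replicate 3 an unnamed assembled transcript held 50.7 FPKM of the Ndufs3 value and 6.92 FPKM of the Ndufs1 value. From the named transcripts alone the log2 differences were 0.12 for Ndufs3 and 0.11 for Ndufs1. Without the assembled transcripts the summed FPKM of the core subunits in stimulated replicate 3 lay below that of control replicate 1. The separation of this sum thus depended on them. Further core subunits, all with overlap, had log2 differences of 0.31 (Ndufv2), 0.24 (Ndufv1, which binds NADH), 0.21 (Ndufs7) and 0.01 (Ndufs8). The sign of Ndufs8 changed with equal library totals, with quantiles and without 4 of the 6 libraries.

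Of the 29 accessory subunits of complex I, 20 had a higher mean and 9 a lower mean in stimulated BMMs. Ndufa5 had 22.6, 27.6 and 39.4 FPKM in controls and 39.6, 41.2 and 46.5 FPKM in stimulated BMMs. The groups were apart by less than 1 FPKM between control replicate 3 and stimulated replicate 1, with only 6.01 fragments in control replicate 1 (log2 difference 0.54, SE 0.21, adjusted p = 0.496 by limma), and on scaled fragments they overlapped. Ndufb2 was lower in stimulated BMMs (60.4, 63.8 and 40.9 FPKM) than in controls (84.4, 65.5 and 64.9 FPKM). It had only 6.97 fragments in stimulated replicate 3 (-0.40, SE 0.20, adjusted p = 0.592 by limma). The groups were narrowly apart, at 64.9 and 63.8 FPKM. An unnamed assembled transcript held the whole value in control replicate 1 and stimulated replicate 2. From named transcripts alone the log2 difference was -0.26 (adjusted p = 0.996 by limma). On scaled fragments it was -0.41, without overlap. Ndufb6, singled out after its values were seen, reached 128 FPKM in stimulated replicate 3 and lay between 31.6 and 65.9 FPKM in the other 5 libraries.

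For several complex I genes, and for Uqcr10, Uqcr11 and Uqcrc1 of complex III (below), the value depended on which line of the file held the fragments. Where Cufflinks assembled a transcript of its own at Ndufa13 or Ndufab1, the named line held little or nothing in that library. At Ndufa13, assembled lines held 186 of 206 FPKM in control replicate 1 and all 96.5 FPKM in control replicate 2, whereas the named line held 44.2 FPKM in control replicate 3 and 64.5, 61.9 and 44.4 FPKM in stimulated BMMs. The log2 difference was -0.77 with the assembled lines, 3.65 with named lines alone and 0.24 on scaled fragments, where the libraries had 46.0, 33.2 and 34.2 fragments in controls and 50.4, 46.3 and 32.2 in stimulated BMMs. Ndufab1, the mitochondrial acyl carrier protein, behaved alike, with log2 differences of -0.61, 3.62 and -0.18 on the same 3 scales. The sign changed with the scale for both, so no direction is given. Ndufs5 was listed at 0 in 4 libraries. In these 4 libraries BC002163, another symbol at the same place on chromosome 4, held 65.9 to 135 FPKM. In control replicate 1 the 2 symbols held 63.7 and 44.6 FPKM, and in stimulated replicate 3 Ndufs5 held all 81.5 FPKM. Added together, the locus had 108, 65.9 and 109 FPKM in controls and 113, 135 and 81.5 FPKM in stimulated BMMs (log2 difference 0.22, SE 0.24, adjusted p = 0.814 by limma), where Ndufs5 alone had an SE of 3.48.

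**Figure D4:**
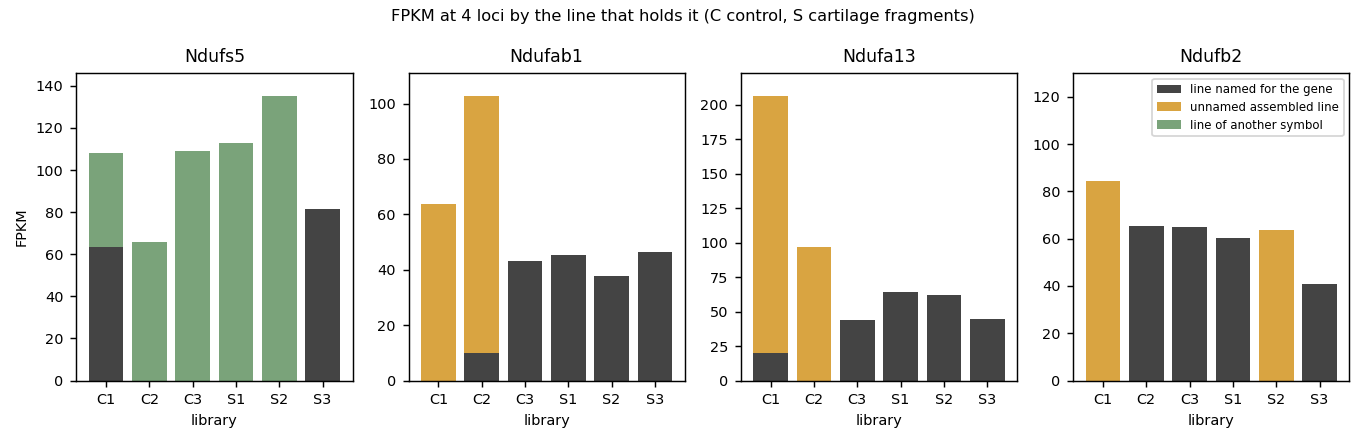
FPKM at 4 complex I loci in control (C1 to C3) and stimulated (S1 to S3) libraries, stacked by the line that holds it (dark, the line named for the gene; yellow, an unnamed assembled line; green, a line of another symbol). The source of the value changes between libraries of 1 group, for example at Ndufa13, where 186 of 206 FPKM in control replicate 1 come from the assembled line.

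In complex III no member had groups apart. Uqcrh, the most abundant, had 327, 302 and 282 FPKM in controls and 332, 358 and 307 FPKM in stimulated BMMs (log2 difference 0.13, SE 0.09, adjusted p = 0.701 by limma). Uqcrfs1, the Rieske iron-sulfur protein, had 43.7 ± 1.74 and 51.2 ± 13.4 FPKM (SD, n = 3), with stimulated libraries on both sides of the controls. The core proteins Uqcrc1 and Uqcrc2 had log2 differences of -0.02 and 0.15, and that of Uqcrc1 was 0.14 from named transcripts alone. The accessory subunits Uqcr10 and Uqcr11 also changed sign, from -0.25 to 0.08 and from -0.10 to 0.15. Unnamed assembled transcripts held part of the value in control replicate 1 (Uqcr10), 2 (Uqcr11) and 3 (Uqcrc1). Stimulated replicate 3 was the lowest library for both Uqcrc1 and Uqcrfs1, with 54.8 FPKM of Uqcrc1 against 71.7 to 96.4 FPKM elsewhere and 37.9 FPKM of Uqcrfs1 against 41.7 to 64.6 FPKM.

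In complex IV the 3 most abundant subunits differed by less than the spread between libraries, with log2 differences of -0.03 for Cox6b1 (95% interval -0.23 to 0.18), 0.09 for Cox4i1 (-0.12 to 0.31) and 0.06 for Cox8a (-0.17 to 0.29). Cox7c had 114, 137 and 120.1 FPKM in controls and 135, 156 and 195 FPKM in stimulated BMMs (0.37, SE 0.14, adjusted p = 0.482 by limma), and Cox7b had a log2 difference of 0.34 (adjusted p = 0.566 by limma). Both overlapped between groups, and they were named after their values had been seen. Cox6a1 (-0.18) and Ndufa4 (-0.12) had lower means in stimulated BMMs. Cox7a1, the form known from heart and skeletal muscle, had 0, 8.57 and 0 FPKM in controls and 17.2, 17.9 and 18.2 FPKM in stimulated BMMs. These values stood for 1 fragment in all controls and 6 in all stimulated libraries, a ratio of 6.28 with an exact 95% counting interval of 0.761 to 289. Its groups were apart, but the adjusted p was 0.423 by limma, and it was 0.00145 without control replicate 2, the only control with a fragment. The muscle markers were at 0 in the same stimulated libraries, and the source of the Cox7a1 fragments was not tested. Cox7a2, the general form, had 98.9 ± 8.19 and 112 ± 14.4 FPKM and Cox7a2l 225 ± 20.3 and 216 ± 9.85 FPKM (SD, n = 3).

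**Figure D5:**
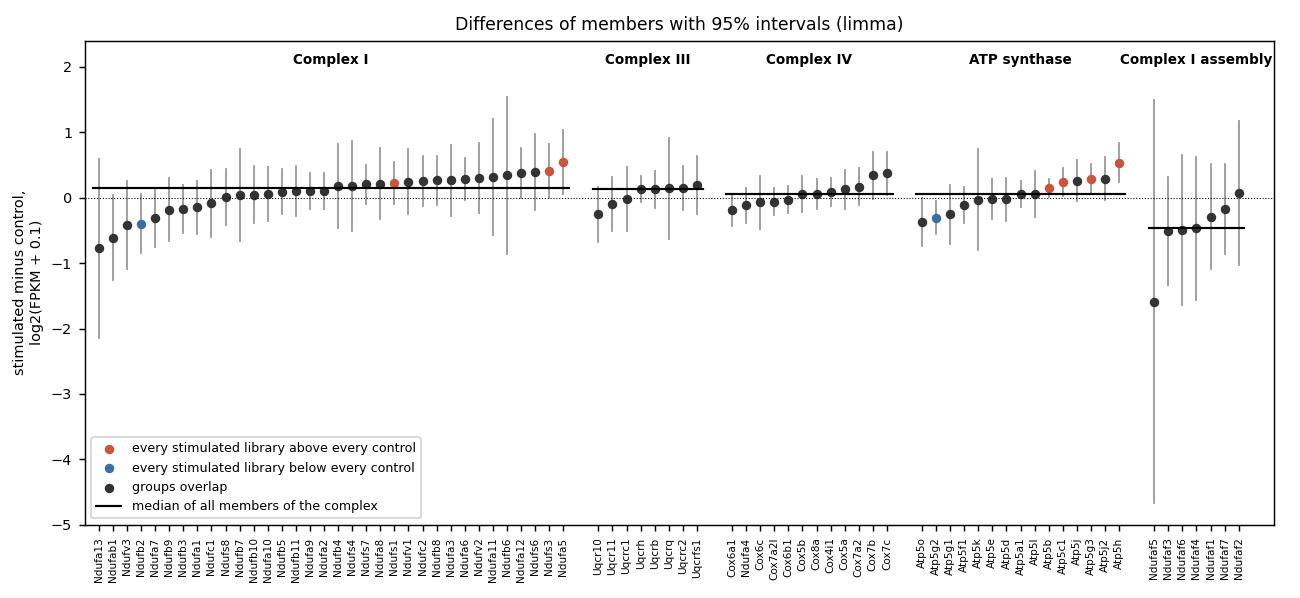
Log2 difference (stimulated minus control, FPKM + 0.1) of the members with 95% limma intervals, in order within each complex, where red and blue points mark groups that do not overlap and black bars the median of each complex. Cox7a1, Ndufs5, Atp5s and Atp5sl are not drawn. Most intervals include 0, and in the ATP synthase Atp5h lies highest and Atp5o lowest.

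The complex I assembly factors lay far below the subunits in level, and their median difference had the opposite sign. Their median level was 4.46 FPKM, and 6 of the 7 had a lower mean in stimulated BMMs, with a median log2 difference of -0.47 (range without 1 library, -0.51 to -0.25). Summed, they had 40.7, 45.2 and 41.9 FPKM in controls and 36.5, 33.7 and 34.0 FPKM in stimulated BMMs. None of the 7 passed (smallest adjusted p 0.716 by limma) and all 7 overlapped between groups singly. The largest difference, that of Ndufaf5 (-1.59, SE 1.34), rested on 11.1 fragments in controls and 8.07 in stimulated BMMs. Of 6 further complex I assembly genes outside the prefix, 5 had a lower mean, with a median of -0.52. All 6 overlapped between groups and 0 passed (smallest adjusted p 0.612 by limma). Nubpl, with the largest fall (-2.25), rested on 7.05 fragments in controls and 2.01 in stimulated BMMs. Foxred1 changed sign, from -0.01 to 0.25 on scaled fragments. Atp5s had 2 fragments in controls and 7 in stimulated BMMs, 5.04 of them in replicate 1 (ratio 3.66, exact 95% counting interval 0.697 to 36.1), and Atp5sl had a log2 difference of 0.08.

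Genes of oxidative phosphorylation outside the symbol prefixes were taken from a list of assembly factors, regulators, carriers and complex II. Of 62 such genes in the files 59 were tested, and 33 had a higher and 26 a lower mean in stimulated BMMs. Of the 59, 0 passed the test (smallest adjusted p 0.267 by limma), and 0 also on scaled fragments. At an unadjusted p under 0.05 by limma there were 3 of the 59, where 9.19% of all tested genes were. The smallest p was that of Cox18, which inserts a part of a core subunit of complex IV into the membrane. Cox18 had 0, 0 and 1.21 FPKM in controls and 2.39, 6.23 and 7.74 FPKM in stimulated BMMs. These values stood for 1.01 fragments in all controls and 13.1 in all stimulated libraries. The 4 subunits of complex II, which feeds electrons from succinate, had log2 differences of 0.05 (Sdha), -0.06 (Sdhb), 0.20 (Sdhc) and -0.02 (Sdhd). Cyc1, the cytochrome c1 of complex III, had 43.4, 44.8 and 45.3 FPKM in controls and 46.3, 52.5 and 60.04 FPKM in stimulated BMMs, without overlap (0.24, adjusted p = 0.646 by limma), and Cycs, cytochrome c, a log2 difference of 0.23. Of 12 regulators of mitochondrial biogenesis, Ppargc1a was listed at 0 in all libraries and 6 of the 11 tested had a higher mean. Among them, Nrf1 (-0.20), Gabpa (0.30) and Yy1 (0.08) encode factors whose motifs were searched in the promoters.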

How the data were processed

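The 3 control and 3 stimulated BMM libraries were grouped by their labels. For each, 100-base read pairs of a stranded library were mapped by the authors with TopHat and Bowtie (build mm10), and transcripts were assembled and measured with Cufflinks. The deposited FPKM are Cufflinks values per transcript, scaled by the authors to length and depth, and the coverage signal deposited beside them is a mean read depth. Tool versions and the strand setting are not given in the sources used here.

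FPKM were summed per symbol over named transcripts and over unnamed assembled transcripts that share a Cufflinks gene with 1 symbol alone. The 10393 symbols that averaged 1 FPKM or more were tested. Fragments were estimated as coverage times the effective transcript length over the read length, with a fragment length of mean 208 to 214 and SD 60 bases chosen to bring low values near whole numbers (83.6% to 91.3% within 0.1). They came to 699192 to 776322 per library, fewer than the mapped reads stated in the methods, and at this estimate the precision of weakly expressed genes is limited. Counting intervals cover counting error only. Some subunit genes have processed pseudogenes, and reads shared with them could not be told apart from these values.

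The 2 groups were fitted with limma (version 3.58.1, R 4.3.3; lmFit, eBayes with trend and robust) on log2(FPKM + 0.1), Benjamini-Hochberg adjusted over all tested genes. On this scale the pseudocount shrinks the fold of low genes, but a gene listed at 0 in some libraries can have a larger log2 difference than the ratio of its means. The procedure was tested on simulated data. Tables were made in Python 3.11.15 (numpy 2.4.6, pandas 2.3.3, scipy 1.17.1) and drawn with matplotlib 3.10.9. The members, gene lists and tests were chosen with earlier results of these data known. Named were members past the threshold, the most abundant member of each complex and those with the largest higher and lower means without overlap, Atp5h, isoform sets, core subunits and genes of complex II and cytochrome c. Other genes were named after their values were seen. The values of 1 member are not reported here and stand only in counts, sums and medians. The fit was repeated with a pseudocount of 1 or 0.01, a filter of 5 FPKM or none, other scalings (equal totals, median-ratio size factors, quantiles, scaled fragments) and lines (named transcripts, status OK), without trend and robust, with sample weights, with the replicate block, with complexes by prefix alone and without each library in turn. Adding lines of another symbol at the same locus was chosen after seeing the data.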

Additional observations from a re-analysis of the deposited data

Results flagged for a closer look

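Unnamed assembled transcripts at 2 complex I loci appeared in stimulated replicate 3 and in no control library. The transcript at Ndufs3 had 50.7 FPKM and that at Ndufs1 had 6.92 FPKM. Both are outside the named transcripts and were added to the sums of these genes. Without them the log2 difference of Ndufs3 went from 0.40 to 0.12 and that of Ndufs1 from 0.22 to 0.11. As fragments not scaled to depth, the library had 43.2 at Ndufs3 and 58.5 at Ndufs1, beside 31.2 to 46.3 and 48.4 to 58.5 in the other 5 libraries. It had the lowest total of all libraries (699192 fragments), and scaled to the total it was the highest for both genes. On scaled fragments the log2 differences were 0.25 for Ndufs3 and 0.21 for Ndufs1. Groups of 3 libraries were not searched for single libraries that stand apart.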

How the results depend on the processing

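No member passed the threshold in the comparison of FPKM or in the other settings tried, except 1 on scaled fragments (Atp5h) and 1 without control replicate 2 (Cox7a1), so leaving out each library gave 0 to 1. The adjusted p of Atp5h ran from 0.0469 on scaled fragments to 0.563 without trend and robust moderation, and its log2 difference stayed positive in every setting. Members above all controls numbered 9, against 5 with equal totals, 5 with quantiles and 12 (without stimulated replicate 1) to 20 (without stimulated replicate 3) with 1 library left out. Members below all controls numbered 2, against 1 with named transcripts alone and 3 (without stimulated replicate 3) to 7 (without control replicate 3) with 1 library left out. Fewer libraries make groups without overlap more frequent by construction. The median log2 difference of the ATP synthase was -0.000241 with equal totals. With 1 library left out the medians were 0.0324 to 0.128 for all members, 0.0108 to 0.194 for complex III and -0.0134 to 0.115 for the ATP synthase. The median of all genes lay between -0.05 and 0.02 over the settings. The cause of these changes was not tested.

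No pairing of the samples by replicate number is known. Over all tested genes, deviations from the group means correlated at -0.02, -0.00 and 0.01 between libraries of the same number. Over the members the values were -0.69, 0.30 and -0.63, and -0.50 to 0.78 between libraries of other numbers. The member values include Ndufs5, listed at 0 in 4 libraries, with 63.7 FPKM in control replicate 1 and 81.5 FPKM in stimulated replicate 3. They also include Cox7a1 and were not computed without these genes, so how far they rest on them was not tested. With 3 libraries per group these values cannot decide whether the numbers pair the samples. With the replicate block 0 members passed, against 0 without it, while the calls over all genes went from 38 to 18. By the estimated fragments the depth limits what could be seen, since 19 of 81 members had fewer than 100 fragments over the 6 libraries. The median half-width of a subunit's unadjusted 95% interval was 0.38 on the log2 scale, and the adjusted threshold asks for more: Atp5h, at 0.54, did not pass it.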
